A study of Mus musculus with 43 samples.

Results

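The long noncoding RNAs Malat1, Neat1, Miat and Gas5 were followed across brain endothelial cells of 7 inbred mouse strains. They were taken as the rows of the gene count table whose symbol equals one of these names, which gave 1 row each and 4 of the 54532 genes in the table. All 4 passed the filter on low values. The 43 libraries came from mice of 2 months of age and were total RNA from cells sorted as positive for CD31 and negative for CD45 and CD11b, out of the cortex (21 libraries) or the hippocampus (22 libraries). The labels name no allele and no treatment, and per the study the mice were under ketamine and xylazine when the brain was taken. Females gave 16 libraries and males 27. The long-inbred strains C57BL/6J, DBA/2J, 129S1/SvImJ, NOD/ShiLtJ and A/J gave 31 libraries and the recently wild-derived strains CAST/EiJ and WSB/EiJ gave 12. Each title also holds the word high or low, whose meaning the labels do not give; 15 of the 16 female and 14 of the 27 male libraries were titled high. The labels do not name the mouse behind a library, so the p-values measure the spread between libraries, some of which may share an animal.

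Malat1 is among the most abundant RNAs of the mammalian nucleus, where it collects in nuclear speckles, the compartments that store splicing factors. Neat1 is the scaffold of paraspeckles, nuclear bodies that hold RNA-binding proteins and form only where its long isoform is made. Miat, also called Gomafu, is a nuclear RNA of neurons whose tandem UACUAAC repeats bind the splicing factor SF1. Gas5 is the host of a set of box C/D snoRNAs, which are cut from its introns, and its spliced exons are broken down by a pathway that depends on translation. Malat1 and Neat1 are neighbours on chromosome 19. Malat1 and the long isoform of Neat1 end in a triple helix that stands in for a poly(A) tail.

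In the mm10 genome and the GENCODE M21 annotation, Malat1 (ENSMUSG00000092341) is a lincRNA on the minus strand at chr19:5795690-5802672, with 6983 exonic bases. Neat1 (ENSMUSG00000092274) is a lincRNA on the same strand at chr19:5824708-5845478, with 20771 exonic bases. Miat (ENSMUSG00000097767) is a lincRNA on the minus strand at chr5:112213228-112229395, with 9293 exonic bases. Gas5 (ENSMUSG00000053332) is annotated as a processed transcript on the plus strand at chr1:161034422-161038539, with 3760 exonic bases.

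The parts of Malat1 and Neat1 that are known to fold into the triple helix are shown because both hold the same runs of bases. Other parts of the transcripts were not compared with each other. The capitals mark the runs of at least 8 identical bases between the last 100 bases of the long Neat1 isoform and the last 400 bases of Malat1, of which there were 3, with 13, 16 and 11 bases. The Malat1 stretch is bases 6604 to 6752 of the 6983-base transcript, at chr19:5795921-5796069 on the minus strand. The Neat1 stretch is the last 94 bases of the 20771-base isoform, at chr19:5824708-5824801 on the minus strand.
Malat1: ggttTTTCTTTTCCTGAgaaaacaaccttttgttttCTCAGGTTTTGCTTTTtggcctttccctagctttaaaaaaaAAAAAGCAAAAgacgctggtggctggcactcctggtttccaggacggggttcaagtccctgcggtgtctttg
Neat1: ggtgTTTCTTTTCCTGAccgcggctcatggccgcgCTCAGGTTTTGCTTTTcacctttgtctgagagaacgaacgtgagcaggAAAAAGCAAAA

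The runs are TTTCTTTTCCTGA, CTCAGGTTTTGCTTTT and AAAAAGCAAAA. They do not overlap and were then searched on the RNA strand of the 7040 annotated transcripts of at least 5000 bases. The first occurred in 0.199% of them, the second in 0.0284% and the third in 2.66%. In this order within 100 bases they stood in 2 transcripts (0.0284%), the Malat1 and Neat1 transcripts from which they were taken. The A-rich run lies at the annotated 3′ end of Neat1, whereas the Malat1 annotation runs on past it into the tRNA-like part that is known to be cut off as a separate small RNA.

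The repeats of Miat are shown next, with each copy of TACTAAC in capitals. The isoform with 9163 bases held 6 copies, or 0.655 per kilobase, against 1 copy in the long Neat1 isoform and 0 in Malat1. They stand in 2 clusters, at chr5:112217309-112217460 and chr5:112216752-112216812 on the minus strand.
Miat, first cluster: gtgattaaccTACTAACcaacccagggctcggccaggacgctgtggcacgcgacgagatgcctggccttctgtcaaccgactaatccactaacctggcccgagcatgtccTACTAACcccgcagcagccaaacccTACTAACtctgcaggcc
Miat, second cluster: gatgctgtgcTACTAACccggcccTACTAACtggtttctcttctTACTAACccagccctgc

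TACTAAC occurred at least once in 15.7% of the 7040 long transcripts, and 3 of them (0.0426%) held at least 6 copies. Of these 3, 2 are the long Miat isoforms themselves and the other is a transcript of Slc8a1, a sodium-calcium exchanger, with 8 copies.

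Gas5 is shown by its start, since the mRNAs of the translation machinery begin with a C and a run of pyrimidines (the TOP motif) and Gas5 belongs with them. RefSeq gives 2 starts in mm10. The bases from chr1:161035166-161035215 on the plus strand began with such a run, in capitals, and those from chr1:161034601-161034650 did not.
Gas5, upstream start: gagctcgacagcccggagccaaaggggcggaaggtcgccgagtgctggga
Gas5, downstream start: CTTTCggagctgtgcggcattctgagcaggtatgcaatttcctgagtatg

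A C followed by 4 pyrimidines stood at 823 of 32851 RefSeq starts (2.51%). It also stood at the RefSeq start of Miat and not at that of Malat1. Of the TOP mRNAs and noncoding snoRNA hosts listed for comparison below, 4 of 11 and 3 of 15 genes with a start in the table had it, so the letters neither set Gas5 apart among the 4 RNAs nor mark most genes of these lists.

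The depth behind the values was 1626534 to 49372356 counts per library, with a median of 5790701. The endothelial identity of the cells was checked on 10 marker genes, among them Cldn5 and Cdh5, whose mean level was 9.87 ± 0.412 log2 CPM (SD, n = 16) in female and 9.81 ± 0.415 (n = 27) in male libraries. Neuronal markers were present at 4.62 ± 0.907 (n = 43) and astrocyte markers at 6.05 ± 0.669. In bulk samples like these, fewer cells of a type and less RNA per cell cannot be told apart. A male WSB/EiJ hippocampus library stood apart, with the highest share of ribosomal reads (29.3%) and the lowest TMM factor (0.704), and without it the calls of the 4 RNAs were as with it, except that of Malat1 for the title word (adjusted p = 0.0597). One technical measure divided the libraries by sex. The share of counts on 3 genes that collect ribosomal RNA reads (Gm23935, Gm42418 and Gm26917, called rRNA-like here) was 1.59 to 12.1% in the female and 13.0 to 29.3% in the male libraries, with no overlap, so that sex and this share cannot be told apart in the comparisons that follow.

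Malat1 was one of the most highly counted genes in every library. It took 0.257% (exact 95% interval 0.253 to 0.262) of the counts in the male WSB/EiJ cortex library titled low and 3.11% (3.09 to 3.13) in the female C57BL/6J cortex library, with a median of 0.55%. Such intervals cover counting error only. Its mean level was 9462 TMM-scaled CPM (counts scaled to library size), rank 6 of the 29120 genes that reached 0.5 CPM in at least 1 library, and its rank within a single library lay between 2 and 20. Mean levels were 108.9 CPM for Neat1, 40.8 for Miat and 13.3 for Gas5. Levels of different genes are comparable only per length. Per kilobase of annotated exon, the mean level was 1355 CPM for Malat1, 5.24 for Neat1, 4.39 for Miat and 3.54 for Gas5. The place of Gas5 depends on the length chosen, since division by the 665 bases of its spliced transcript Gas5-203 gives 20.05 CPM per kilobase, above Neat1 and Miat. The lowest count in a library was 8332 for Malat1, so its counting error was small, and 50 for Neat1. The lowest share of Neat1, 67 counts in the male DBA/2J hippocampus library titled low, was 9.77e-04% (exact 95% interval 7.57e-04 to 0.00124). Miat fell to 2 counts in 1 library, and Gas5 had more than 3 counts in 39 of 43 libraries. Since the table holds 1 value per gene, the short and the long isoform of Neat1 cannot be told apart.

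**Figure D1:**
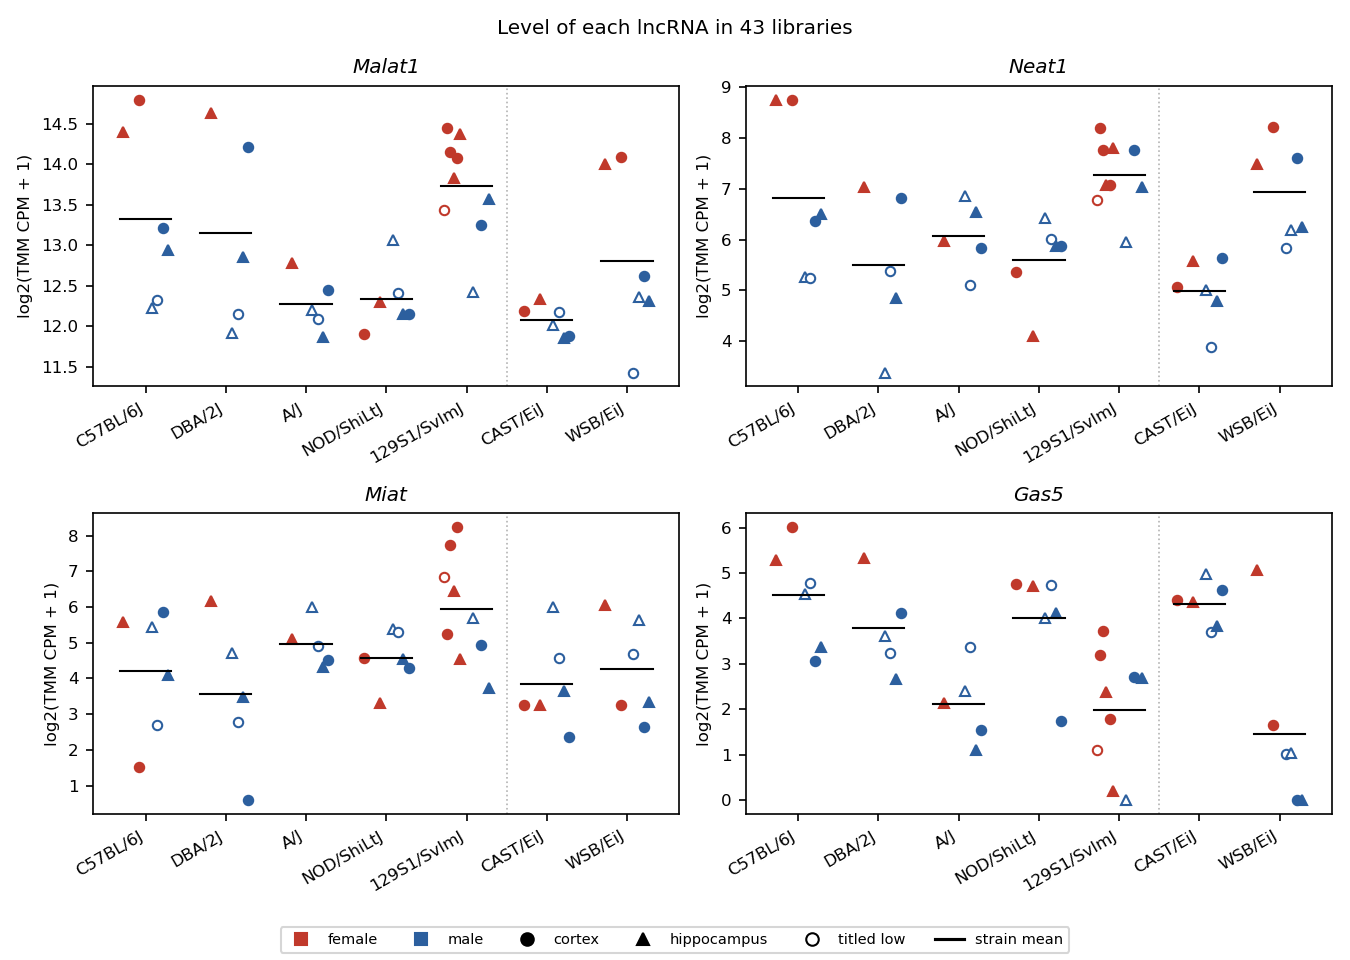
Level of each RNA in each of the 43 libraries, as log2(TMM CPM + 1), by strain, with long-inbred strains left of the dotted line and wild-derived strains right of it. Red marks are female and blue marks male libraries, circles cortex and triangles hippocampus, open marks libraries titled low, and bars strain means. Malat1 stood highest in female libraries of 4 strains (up to 28510 CPM), and Gas5 was lowest in WSB/EiJ, where 2 male libraries held 0 counts.

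Levels differed among the 7 strains for Malat1 (adjusted p = 9.735e-06, joint quasi-likelihood F test of edgeR over 29120 genes, Benjamini-Hochberg adjustment), Neat1 (adjusted p = 1.369e-04) and Miat (adjusted p = 0.038), and not past the threshold for Gas5 (adjusted p = 0.121). The same test called 2.68% of all genes. For Gas5 the other tool run, DESeq2, gave an adjusted p of 0.0125. With the rRNA-like share as a covariate, adjusted p was 0.0738 for Malat1, 0.0634 for Neat1, 0.974 for Miat and 0.0202 for Gas5, and with sex and region as covariates Miat no longer passed (0.284) and Gas5 did (0.0442). The strains do not hold the same number of female libraries (6 of 9 for 129S1/SvImJ, 1 of 5 for A/J and DBA/2J, 2 of 6 for the other 4). Within the 27 male libraries alone, adjusted p was 4.427e-04 for Malat1, 0.0464 for Neat1, 0.908 for Miat and 0.176 for Gas5. Markers of some cell types also differed among strains in the joint test. It called 6 of 10 pericyte, 3 of 10 endothelial and 2 of 8 smooth muscle markers. Also called were 2 of 10 astrocyte, 2 of 6 choroid plexus and 1 of 8 neuronal markers. Of 8 oligodendrocyte, 8 microglial and 6 fibroblast markers it called 0. The pericyte marker mean ran from 6.64 ± 0.38 log2 CPM (SD, n = 9) in 129S1/SvImJ to 7.79 ± 0.48 (n = 6) in WSB/EiJ. The part of these cells in the strain values was not tested.

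The order of the strains by mean log2 CPM of Malat1 was 129S1/SvImJ (14700 ± 5581 CPM, SD, n = 9), C57BL/6J (12920 ± 9837, n = 6), DBA/2J (12040 ± 9648, n = 5), WSB/EiJ (8886 ± 6354, n = 6), NOD/ShiLtJ (5341 ± 1688, n = 6), A/J (5094 ± 1287, n = 5) and CAST/EiJ (4342 ± 574.7, n = 6). The SD ranged widely, from 574.7 CPM in CAST/EiJ to 9837 CPM in C57BL/6J. For Neat1 the order was 129S1/SvImJ (167.6 ± 71.9 CPM), WSB/EiJ (145.4 ± 94.3), C57BL/6J (183.4 ± 190.2), A/J (71.8 ± 31.98), NOD/ShiLtJ (53.2 ± 23.1), DBA/2J (64.1 ± 53.8) and CAST/EiJ (33.4 ± 13.0). Both RNAs of the chromosome 19 locus were thus highest by log mean in 129S1/SvImJ and lowest in CAST/EiJ. Over both sexes Miat was highest in 129S1/SvImJ (96.5 ± 99.5 CPM) and lowest by log mean in DBA/2J. In male libraries alone it was highest by log mean in A/J (33.2 ± 20.04 CPM, n = 4), and 129S1/SvImJ stood at place 3 (31.1 ± 19.5 CPM, n = 3).

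Gas5 gave another order. It was highest in C57BL/6J (27.8 ± 20.8 CPM), CAST/EiJ (19.8 ± 6.82), NOD/ShiLtJ (18.4 ± 9.32) and DBA/2J (16.1 ± 13.6), and lower in A/J (4.01 ± 3.21), 129S1/SvImJ (4.35 ± 4.01) and WSB/EiJ (6.10 ± 12.9). The step from DBA/2J to A/J was 1.69 on the log2 scale, singled out after the values were seen (exact permutation p = 0.0238, two-sided, adjusted p = 0.571 over 24 neighbour pairs). None of the 24 pairs of neighbours in the 4 orders differed past the threshold after adjustment by this exact test (adjusted p from 0.571 to 0.944, 1 pair at an unadjusted p under 0.05), and in males the adjusted p was 0.971 for every pair. In males the smallest p that this test can give is 0.0286, or 0.686 for 1 pair alone after adjustment, so the male values say nothing on whether neighbours differ. In 4 libraries Gas5 had 3 counts or fewer. The male WSB/EiJ libraries titled high, from cortex and hippocampus, both held 0 counts, which allows up to 1.21 and 1.84 CPM. In WSB/EiJ a male library from hippocampus with the title word low held 2 counts (1.05 CPM), and the male 129S1/SvImJ hippocampus library titled low held 0, which allows up to 1.24 CPM. The female WSB/EiJ libraries were at 2.16 CPM in cortex and 32.4 CPM in hippocampus.

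Malat1, Neat1 and Miat were higher in female than in male libraries. The comparison asks whether these RNAs differ by sex, which the labels give for every library. The same test called 2.85% of all 29120 genes (2.56% higher and 0.292% lower in female). By direction these were 745 higher and 85 lower, and 430 higher and 155 lower with RLE factors in place of TMM. The split depended on the tool too, with 626 higher and 405 lower in DESeq2 and, in the opposite direction, 2986 higher and 7487 lower with edgeR's default deviances. Malat1 reached a lowest, median and highest level of 3821, 16850 and 28510 CPM in the 16 female libraries and of 2759, 5109 and 19000 CPM in the 27 male libraries. Most female libraries lay above most male ones, but the ranges overlapped. The difference was 2.43-fold (95% interval 1.91 to 3.08), or 1.28 ± 0.18 on the log2 scale (SE), with adjusted p = 1.944e-07 in edgeR's quasi-likelihood test. The median log2 difference of all genes was -0.12 with TMM scaling, -0.24 with RLE factors and 0.03 with column totals, so the rise stood above it under each.

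Some markers of other cells moved with sex as well, in a test that called 2.85% of all genes. Of 6 choroid plexus markers, edgeR called 2 higher in female (Ttr and Enpp2, median log2 difference of the list 1.87) and DESeq2 called 0, and the mean of the list spanned 1.13 to 5.54 log2 CPM in female and 0.73 to 3.08 in male libraries. Of 10 astrocyte markers, 2 were lower in female (the glutamate transporters Slc1a2 and Slc1a3, median -0.38), with means of 5.01 to 6.56 and 4.68 to 7.76. Of the other lists, edgeR called 1 of 10 endothelial and 1 of 8 oligodendrocyte markers higher. It called 0 of 10 pericyte, 8 smooth muscle, 8 neuronal, 8 microglial and 6 fibroblast markers, while DESeq2 called 1 pericyte marker. The part of these cells in the sex differences was not tested.

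Neat1 spanned 16.1 to 428.7 CPM in female libraries (median 133.2) and 9.48 to 215.7 CPM in male ones (median 57.5). Its log2 difference of 1.28 ± 0.27 (adjusted p = 0.00115) over all libraries had the same size as that of Malat1, with a wider error and again overlapping groups. Miat spanned 1.89 to 301.8 CPM in female libraries (median 35.3) and 0.51 to 63.6 CPM in male ones (median 22.3), with a log2 difference of 1.35 ± 0.37 (adjusted p = 0.0208). Gas5 spanned 0.15 to 63.4 CPM in female and 0 to 30.4 CPM in male libraries, and its log2 difference of 0.87 ± 0.49 did not pass the threshold (adjusted p = 0.444). With the rRNA-like share as a covariate, none of the 4 passed edgeR's test, and the log2 values were -0.63 for Malat1 (adjusted p = 0.504), -1.13 for Neat1 (0.516), -1.20 for Miat (0.640) and 1.27 for Gas5 (0.770). The share does not overlap between the sexes, so this fit cannot separate it from sex and decides nothing on the sex differences. The fit called 0.282% of the 26240 genes it kept.

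Among libraries titled high, Malat1 was higher in female in 11 of 12 pairs of strain and region with both sexes, Neat1 in 7, Miat in 9 and Gas5 in 10. The median log2 difference of these pairs was 0.94 for Malat1 (range -0.25 to 1.78) and 0.50 for Neat1 (-1.77 to 2.38). It was 0.84 for Miat (-4.33 to 2.72) and 1.35 for Gas5 (-1.40 to 5.06). By strain, the levels of Malat1 were as follows. In C57BL/6J the 2 female libraries were at 21700 and 28510 CPM and the 4 male ones at 4783, 5147, 7895 and 9491. In DBA/2J the single female library was at 25420 CPM and the male ones at 3857, 4537, 7392 and 19000. In WSB/EiJ the female libraries were at 16410 and 17470 CPM and the male ones at 2759, 5109, 5262 and 6311. Female libraries lay above every male library in these 3 strains. The same held in A/J by a smaller step, with the female library at 7062 CPM and the male ones at 3750, 4348, 4718 and 5590.

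In 129S1/SvImJ the 6 female libraries ran from 11090 through a median of 17740 to 22440 CPM, and the 3 male ones were at 5513, 9764 and 12200, so the sexes overlapped at 1 male library. In NOD/ShiLtJ the female libraries were at 3821 and 5048 CPM and the male ones at 4553, 4560, 5465 and 8598. In CAST/EiJ the female libraries were at 4667 and 5170 CPM and the male ones at 3712, 3757, 4130 and 4617. The female libraries of NOD/ShiLtJ thus lay within or below the male range, and those of CAST/EiJ lay above every male one. The rRNA-like share moved with these strains: it was 1.59 to 4.05% in the female libraries of C57BL/6J, DBA/2J, WSB/EiJ and 129S1/SvImJ, and 9.66 to 12.1% in those of A/J, NOD/ShiLtJ and CAST/EiJ. Malat1 and this share had r = -0.72 and rho = -0.581 over the 43 libraries (permutation adjusted p = 1.2e-04 and 3.6e-04). In the 27 male libraries r was -0.198 and rho -0.156 (permutation adjusted p = 0.894 and 0.972). In the 16 female libraries, which fall into these 2 groups of strains, r was -0.889 and rho -0.553 (permutation adjusted p = 0.00372 and 0.103). The covariate fit above cannot separate the share from sex, and beyond these values the part of the share in the result was not tested.

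The levels of Neat1 lay in a like way in part of the strains. It was at 426.0 and 428.7 CPM in the female C57BL/6J libraries against 36.8 to 89.9 CPM in the 4 male ones, and at 178.6 and 296.1 CPM in the female WSB/EiJ libraries against 56.3, 72.3, 74.8 and 194.3 in the male ones. In NOD/ShiLtJ it was lower in both female libraries (16.1 and 40.4 CPM) than in any of the 4 male ones (57.3, 57.5, 63.5 and 84.6 CPM). The call for Neat1 rested on C57BL/6J, without which the log2 difference was 0.87 (adjusted p = 0.110), and it did not pass within cortex (1.32, adjusted p = 0.0762), within hippocampus (1.22, adjusted p = 0.0782) or among libraries titled high (0.93, adjusted p = 0.166).

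**Figure D2:**
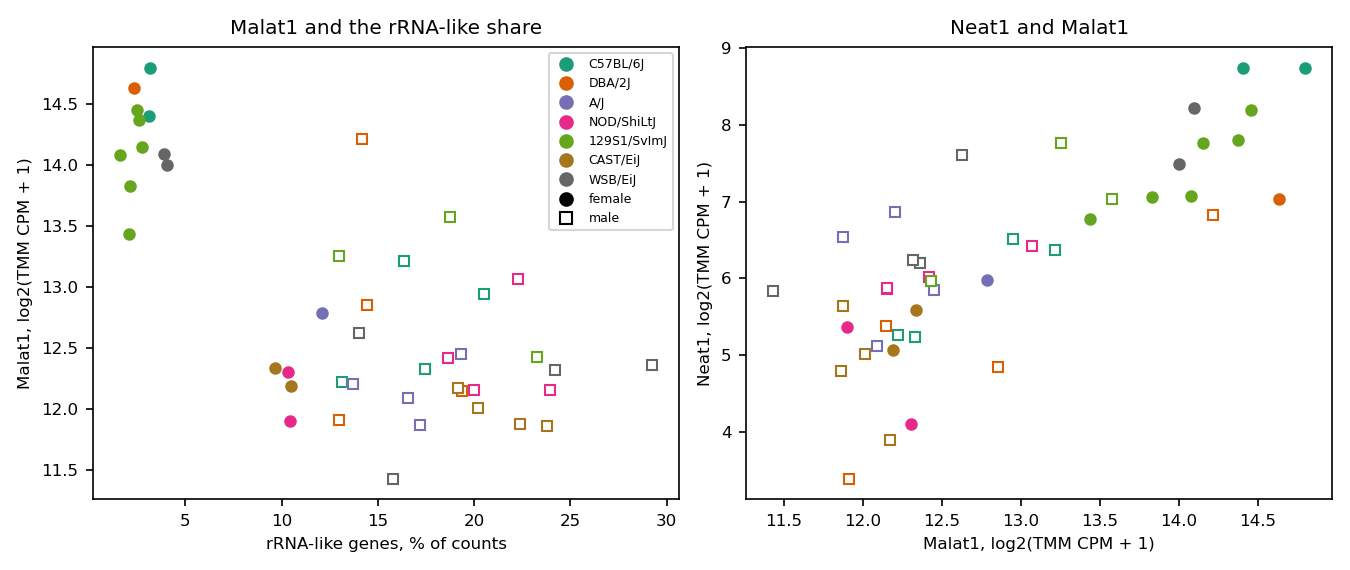
Left, Malat1 as log2(TMM CPM + 1) against the percent of counts on the 3 rRNA-like genes, 1 point per library, filled circles female and open squares male, coloured by strain. Right, Neat1 against Malat1 on the same scale. The 11 female libraries that lie top left in the plot against the rRNA-like share come from C57BL/6J, DBA/2J, 129S1/SvImJ and WSB/EiJ; the female A/J, NOD/ShiLtJ and CAST/EiJ libraries lie among or near the male ones in both plots.

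The call for Miat rested on 129S1/SvImJ. Without that strain the log2 difference between the sexes was 0.13 (adjusted p = 0.913), without DBA/2J it was 1.20 (adjusted p = 0.0962), and with strain and region as covariates it was 0.54 (adjusted p = 0.825). In the 6 female 129S1/SvImJ libraries Miat was at 22.3, 36.9, 85.8, 114.1, 214.7 and 301.8 CPM, and in the 3 male ones at 12.3, 29.6 and 51.3 CPM. The neuronal marker mean in the same 6 female libraries was 3.93, 4.08, 4.99, 6.26, 5.83 and 6.63 log2 CPM, so the 3 libraries with the most Miat were also the 3 with the most neuronal RNA. Over all 16 female libraries, Miat and the neuronal marker mean were related (r = 0.658, rho = 0.715, permutation adjusted p = 0.0307 and 0.0193), with r = 0.472 without the 2 libraries farthest on the marker scale. In the 27 male libraries they were not (r = 0.073, rho = 0.159, permutation adjusted p = 0.972), and 18 relations were computed in each set. In the female libraries Miat also had r = -0.486 and rho = -0.682 with the rRNA-like share (permutation adjusted p = 0.173 and 0.0275). With log10 total count it had r = 0.544 and rho = 0.588 (permutation adjusted p = 0.103 and 0.0796). The female libraries fall into the 2 groups of strains described for Malat1, and these relations were not separated from strain. The neuronal marker mean itself was 4.59 ± 1.04 log2 CPM (SD, n = 16) in female and 4.64 ± 0.84 (n = 27) in male libraries. The part of neuronal RNA in the result was not tested further.

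The proportion of Neat1 to Malat1 did not differ past the threshold between the sexes. The log2 ratio of Neat1 to Malat1 counts, which does not depend on how libraries are scaled, was -6.69 ± 0.64 (SD, n = 16) in female and -6.62 ± 0.88 (n = 27) in male libraries, a difference of -0.07 (permutation p = 0.774, two-sided). It did not differ past the threshold for origin, region or the title word either (adjusted p from 0.634 to 0.774 over 4 contrasts). Within the male libraries Malat1 and Neat1 had r = 0.532 and rho = 0.597 (permutation p = 0.00455 and 0.00158, adjusted p = 0.0819 and 0.0569 over 18 relations), and r = 0.481 without the 2 libraries farthest in Malat1. Since the female libraries fall into the 2 groups of strains described for Malat1, r of Malat1 and Neat1 over them is not given.

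**Figure D3:**
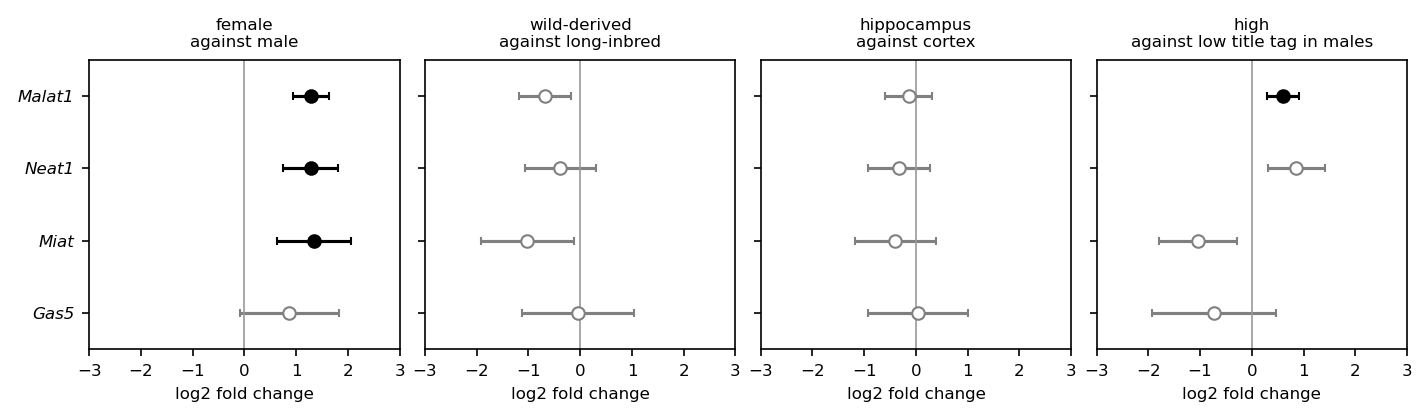
Log2 fold change of each RNA in 4 comparisons, with 95% intervals from edgeR's quasi-likelihood fit. Filled marks passed an adjusted p of 0.05 over all genes tested, and open marks did not: Malat1, Neat1 and Miat passed between the sexes, and Malat1 passed for the title word in males.

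The study set recently wild-derived strains against long-inbred ones, and here the test called 0.749% of all genes and none of the 4. Malat1 was at 6614 ± 4912 CPM (SD, n = 12) in wild-derived and 10560 ± 7388 CPM (n = 31) in long-inbred libraries, with a log2 difference of -0.68 ± 0.26 (adjusted p = 0.376). The mean of Malat1 was 4342 CPM in CAST/EiJ and 8886 CPM in WSB/EiJ, the 2 strains behind the wild-derived value. Without WSB/EiJ the log2 difference was -1.30 for Malat1 (adjusted p = 0.0387) and -1.82 for Neat1 (adjusted p = 0.0422), and without CAST/EiJ it was 0.32 for Neat1. Neat1 gave -0.39 ± 0.35 (adjusted p = 0.754), Miat -1.02 ± 0.46 (adjusted p = 0.604) and Gas5 -0.04 ± 0.55 (adjusted p = 0.983) in the full comparison, where the median of all genes was -0.38. At an unadjusted p under 0.05, Malat1 and Miat passed, as did 2041 of all 29120 genes.

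Between hippocampus and cortex the test called 0.0755% of all genes and none of the 4. Mean levels in hippocampus (n = 22) and cortex (n = 21) were 9003 and 9944 CPM for Malat1, 96.5 and 121.8 for Neat1, 35.4 and 46.4 for Miat and 13.5 and 13.1 for Gas5. The log2 differences were -0.14 ± 0.23, -0.33 ± 0.31, -0.40 ± 0.40 and 0.05 ± 0.49 (adjusted p from 0.704 to 0.989). In the 18 sets of strain, sex and title word with both regions, hippocampus was higher in 6 for Malat1, in 8 for Neat1, in 13 for Miat and in 6 for Gas5. The direction for Miat thus differed between these matched sets and the fit over all libraries. Without 129S1/SvImJ its log2 difference was 0.96, and in males alone it was 0.61.

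Whether the sex difference itself differed between regions or origins was tested by interaction terms, which called 0.00343% and 0.0206% of all genes and none of the 4 RNAs (adjusted p = 0.9999 for each in edgeR's test). The largest estimates were those of Miat, at -1.66 ± 0.74 for sex by region (unadjusted p = 0.0265) and -1.63 ± 0.86 for sex by origin (unadjusted p = 0.0614).

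The title words high and low were compared in the 27 male libraries only, where the test called 1.06% of 27529 genes. Malat1 was higher in the 14 male libraries titled high (7363 ± 4240 CPM) than in the 13 titled low (4903 ± 1335 CPM), with a log2 difference of 0.60 ± 0.16 (adjusted p = 0.0446). This call stood near the threshold: adjusted p was 0.0543 with DESeq2 and 0.221 with strain and region as covariates, it was lost when any of 5 strains was left out, and the log2 difference was 0.35 without DBA/2J, whose male cortex library titled high held the highest male level (19000 CPM). It was higher in the library titled high in 7 of 13 pairs matched on strain and region. Neat1 was at 90.3 ± 56.8 and 50.5 ± 29.3 CPM (log2 difference 0.86 ± 0.28, adjusted p = 0.167) and higher in 9 of 13 pairs.

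For Miat the values lay the other way round and did not pass the test. It was at 17.0 ± 14.0 CPM in male libraries titled high and 35.5 ± 18.8 CPM in those titled low (log2 difference -1.04 ± 0.38, adjusted p = 0.286), and lower in the library titled high in 12 of 13 pairs. Gas5 was at 7.69 and 12.8 CPM (-0.72 ± 0.61, adjusted p = 0.651) and lower in 9 of 13. Markers of other cells moved with the title word in these libraries. The neuronal marker mean was 4.14 ± 0.74 log2 CPM in libraries titled high and 5.17 ± 0.58 in those titled low, with 2 of 8 markers called lower and 0 of 8 with a log2 difference above 0, and the astrocyte mean was 5.72 and 6.72, with 4 of 10 called lower. The endothelial mean was 9.99 and 9.62, with 3 of 10 called higher. Of the other lists, 1 of 10 pericyte and 1 of 8 oligodendrocyte markers were called lower. Of 8 smooth muscle, 8 microglial, 6 fibroblast and 6 choroid plexus markers 0 were called. The part of these cells in the values of Miat was not tested.

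**Figure D4:**
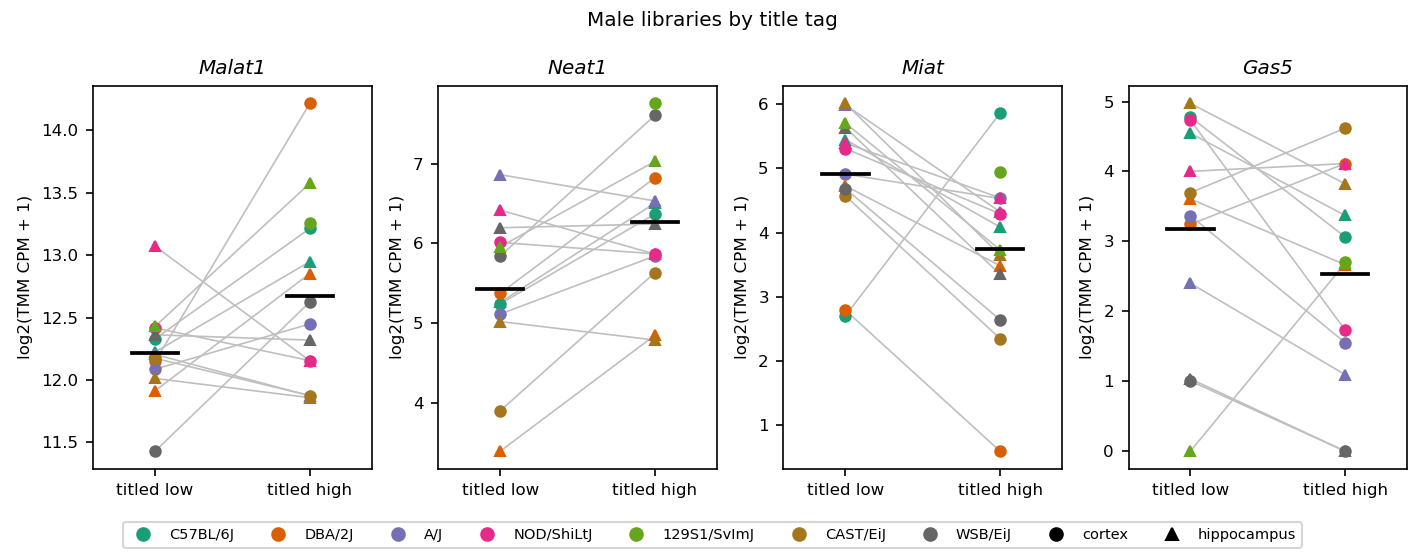
Level of each RNA in the 27 male libraries as log2(TMM CPM + 1), titled low on the left and titled high on the right of each panel. Grey lines join the 13 pairs of the same strain and region, colours mark strains, circles cortex and triangles hippocampus, and bars group means. Miat was lower in the library titled high in 12 of 13 pairs, while the lines of Malat1 ran up in 7 and down in 6.

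Genes whose pattern over the 43 libraries was most like that of each RNA were named by Pearson's r of log2 CPM among 10649 genes with a mean of at least 5 CPM. The libraries share the division by sex and rRNA-like share, so the values are a description, and the value within the 27 male libraries follows in each case. For Malat1 these were Arglu1 (r = 0.899, 0.670 in males), Luc7l3 (0.881, 0.687), Acin1 (0.875, 0.664), Pnisr (0.852, 0.584) and Bclaf1 (0.845, 0.647), all genes of proteins tied to RNA processing. Neat1 stood at place 15 for Malat1. For Neat1 the leading genes were Srrm2, a large speckle protein (0.821, 0.664), the cytoskeletal crosslinker Macf1 (0.809, 0.539), the imprinted lncRNA Kcnq1ot1 (0.803, 0.830), Malat1 itself (0.791, 0.532) and Acin1 (0.789, 0.608).

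Miat was most like Speg (0.671, 0.609), Mir124a-1hg, the host of the neuronal miR-124 (0.659, 0.438), Ift81 (0.654, 0.546), the imprinted lncRNA Meg3 (0.635, 0.419) and Ppfia2, a presynaptic scaffold (0.630, 0.532). Gas5 was most like Parp10 (0.633, 0.562), the interferon-inducible GTPases Gbp3 (0.632, 0.680) and Gbp5 (0.623, 0.587), and the mitochondrial genes Mrpl30 (0.618, 0.607) and Atp5o (0.615, 0.685). Neither Miat nor Gas5 was close to Malat1, with r = 0.173 and 0.112 over the 43 libraries.

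Lists of genes that share a compartment or a class with these RNAs were compared between the sexes. The same test called 2.56% of all 29120 genes higher in female and 0.292% lower. With a stricter filter on low counts (filterByExpr of edgeR), which kept 12420 genes, it called 7.54% in either direction. The median log2 difference of those genes was 0.14. Of 24 well-known lncRNAs, 21 were tested, 8 of which were higher and 1 lower in female libraries, with a median log2 difference of 0.75 against -0.12 over all genes. By p the first were Xist (7.93 ± 0.49, adjusted p = 2.377e-22), which coats the inactive X chromosome, Malat1, and Meg3 (1.81 ± 0.26, adjusted p = 4.123e-07). The members Malat1, Neat1 and Miat are 3 of these 8, and Xist, a marker of female sex, is another. The lists were chosen with earlier results of these data known. Luc7l3 and Arglu1, named next, also stood among the genes most like Malat1, so they are not separate evidence. Of 24 nuclear speckle proteins, 12 were higher and 0 lower in female (median 0.53), led by the splicing-related proteins Luc7l3 (1.43 ± 0.18, adjusted p = 2.147e-08), Pnn (1.21 ± 0.18, adjusted p = 6.785e-07) and Arglu1 (1.31 ± 0.19, adjusted p = 1.112e-06). Of 23 paraspeckle proteins, 10 were higher and 0 lower (median 0.58), led by Hnrnpk (0.88 ± 0.12, adjusted p = 3.46e-07), Srsf10 (1.38 ± 0.24, adjusted p = 3.777e-05) and Sfpq (0.75 ± 0.13, adjusted p = 3.988e-05), the last a core protein of the paraspeckle that binds Neat1.

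For the relatives of Gas5 the counts were smaller, and the share of all genes called was again 2.56% higher and 0.292% lower. Of 15 tested noncoding snoRNA hosts, edgeR and DESeq2 called 0, and 13 lay above 0 with a median of 0.99. In edgeR's test 1 of the 15 had an unadjusted p under 0.05, against 3818 of all 29120 genes. Of 18 TOP mRNAs other than those of ribosomal proteins, 4 were higher and 1 lower (median 0.31), led by Npm1, a nucleolar chaperone (0.75 ± 0.17, adjusted p = 0.00193), Fau (0.71 ± 0.16, adjusted p = 0.00207) and the initiation factor subunit Eif3f (-0.74 ± 0.18, adjusted p = 0.00938). The counts of speckle and paraspeckle proteins called higher were 9 and 7 with RLE factors and 16 and 14 with column totals. With the rRNA-like share as a covariate they were 0 and 0, and the lncRNA list kept 1 call. That fit cannot separate the share from sex, and it called 0.282% of the genes it kept.

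**Figure D5:**
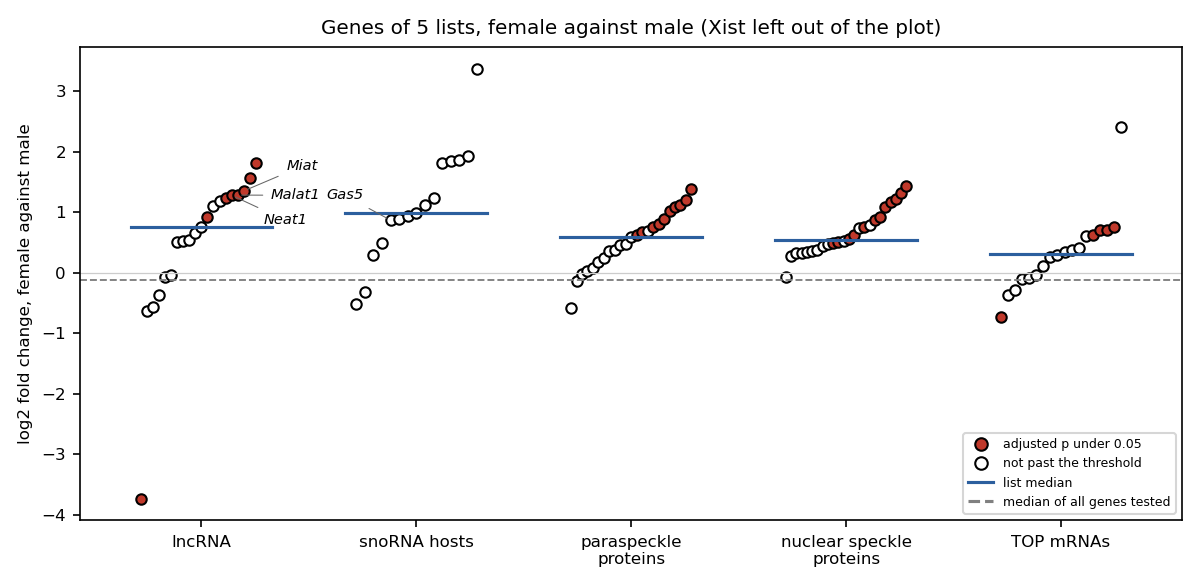
Log2 fold change, female against male, of each tested gene of 5 lists, sorted within a list. Filled marks passed an adjusted p of 0.05, blue bars are list medians and the dashed line is the median of all genes tested (-0.12). Xist is left out for scale, and 12 of 24 speckle and 10 of 23 paraspeckle proteins are filled, each above 0. The test called 2.56% of all genes higher in female.

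Among the strains, where the joint test called 2.68% of all genes, 7 of 21 lncRNAs (33.3%) passed, led by Malat1, Meg3 (adjusted p = 3.5e-05) and Snhg11 (adjusted p = 1.2e-04). The members Malat1, Neat1 and Miat are among these 7, so their calls, given above, are counted again here. Of 24 speckle proteins, 6 passed (25%), led by Arglu1 (adjusted p = 0.0017), Luc7l3 (0.00729) and Srrm2 (0.00834). One of 23 paraspeckle proteins passed (4.35%, near the share of all genes), Hnrnpa1 (adjusted p = 0.00526), and 5 of 18 TOP mRNAs (27.8%), led by Tpt1, Eef1a1 and Eef1b2. With the stricter filter on low counts, which kept 15817 genes, the joint test called 5.64% of them. For origin and for region edgeR called 0 genes of the 5 lists, against 0.749% and 0.0755% of all genes. At an unadjusted p under 0.05 the counts were 6 of 21 lncRNAs, 2 of 24 speckle proteins and 6 of 18 TOP mRNAs for origin, and 3 lncRNAs and 1 speckle protein for region. Over all 29120 genes, 2041 had such a p for origin and 1631 for region. The counts of speckle proteins lay near these shares. DESeq2 called 1 lncRNA for origin and 0 for region. For the title word in males, Meg3 (-1.08 ± 0.18, adjusted p = 4.03e-04) and Snhg11 (-1.07 ± 0.25, adjusted p = 0.015) were lower in libraries titled high, while Malat1 was higher.

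Of the 28 genes tested within 100 kb of a member, edgeR and DESeq2 called 0 between the sexes. Of all genes tested, edgeR called 2.85% and DESeq2 3.54%. In edgeR's test 4 of the 28 had an unadjusted p under 0.05, against 3818 of all 29120 genes. This is near the share of all genes, so the 4 are not read as an effect at a locus. They lie near Malat1 and Neat1, which are 22036 bases apart. Map3k11 (98.7 CPM), near Malat1, had a log2 difference of -0.43 ± 0.20 (adjusted p = 0.320), and Ehbp1l1 (81.2 CPM) one of 0.47 ± 0.18 (adjusted p = 0.203). Gm37376, annotated as a transcript of type TEC on the strand opposite Malat1 at chr19:5801941-5802393, was at 4.67 CPM with a log2 difference of 2.08 (adjusted p = 0.161). It passed the joint test among strains (adjusted p = 0.0108). Whether the counting used strand is not given in the sources used here, so its reads cannot be told apart from those of Malat1. Near Gas5, Zbtb37, which overlaps it on the opposite strand, was at 32.1 CPM with a log2 difference of 0.31 ± 0.25 (adjusted p = 0.497).

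The small RNAs annotated inside the members were listed at 0 in all 43 libraries. This held for 1 misc_RNA row within Malat1, 3 within Neat1 and 4 within Miat, and for the 10 snoRNA rows within Gas5, which together cover 669 of its bases. The Miat rows Gm27627 and Gm27882 cover 143 of the 152 bases and all 61 bases of the 2 repeat clusters printed above. Over the whole table, 249 of 1507 snoRNA rows and 104 of 562 misc_RNA rows had any count. How reads that overlap 2 annotated genes were counted is not given in the sources used here, so these zeros do not show that the small RNAs were absent.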

How the data were processed

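The authors sorted live CD31+ cells, depleted rRNA from total RNA, prepared libraries with the SMARTer Stranded Total RNA Pico kit and sequenced single-end reads. Per their methods and processing notes, reads were aligned to mm10 with HISAT2 2.1.0, handled with SAMtools 1.9 and summed per gene with featureCounts of Subread 1.4.4. The deposited values are raw counts per gene, not normalised. Whether strand was used is not given in the sources used here.

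The table holds 54532 genes in 43 libraries, with 0 columns left unmapped and totals of 1626534 to 49372356. The 29120 genes that reached 0.5 CPM in 1 or more libraries entered the tests of edgeR 4.0.16 in R 4.3.3 (TMM factors, quasi-likelihood F test with bias-adjusted deviances and trended dispersion, two-sided, no covariates as in the study, Benjamini-Hochberg threshold of 0.05). The deviance setting was chosen in earlier work on these data. SE is the log2 fold change over the square root of F. DESeq2 1.42.0 was an alternative. Levels are TMM CPM, and log2 values have 1 added. Permutation tests used 100000 resamples or exact enumeration (scipy 1.17.1). Fits with covariates left out genes whose largest fitted count was over 5 times the largest observed one. Scripts were tested on simulated data.

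The named genes were the 4 RNAs, up to 3 genes per list with the smallest p, the 5 most like each RNA and those within 100 kb. The members and lists were chosen with earlier results of these data known. Positions and transcripts are from GENCODE M21, which matched 54495 identifiers, and starts from RefSeq in mm10, which held 3 of the 4 RNAs. Alternatives changed the tool, deviances, scaling, filter, covariates and libraries; leaving out 1 library, that with the highest Lars2, was added after the data were seen.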

Additional observations from a re-analysis of the deposited data

Results flagged for a closer look

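Libraries far from the others were searched for in 56 groups of 4 to 10 libraries of 1 strain, in both sexes together and in each sex, and chance alone marks about 1 in 20 groups. The search named 2 libraries, both for Gas5. In NOD/ShiLtJ, the male cortex library titled high was at 2.325 CPM, below the other 5, of which the nearest was at 15.01 CPM, a gap of 0.749 of the range on the log2 scale. In WSB/EiJ, the female hippocampus library was at 32.41 CPM, above the other 5, of which the nearest was at 2.162 CPM, a gap of 0.672 of the range.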

How the results depend on the processing

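Of 360 values for the 4 RNAs under alternatives in 5 comparisons, 305 kept their direction and side of the threshold, 26 no longer passed, 9 newly passed and 20 changed direction. The call of Malat1 between the sexes was lost under 1 alternative only, the rRNA-like share as a covariate, which that fit cannot separate from sex. Depth limited Gas5, with 3 counts or fewer in 4 libraries. No paired analysis was possible because the labels do not name the mouse, only 4 titles, all of female 129S1/SvImJ libraries, carry a number, and the groups compared share 1 such number at most. The causes of the changes below were not tested.

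Numbers of genes called moved as follows. Between the sexes (830) there were 10473 with edgeR's default deviances, 1330 with column totals, 74 with the rRNA-like share as a covariate, 241 in cortex, 304 in hippocampus, 448 among libraries titled high and 515 to 827 without 1 strain (515 without DBA/2J and 532 without 129S1/SvImJ); 745 were higher and 85 lower, against 626 and 405 with DESeq2 and 2986 and 7487 with default deviances. For origin (218) there were 395 with DESeq2, 6712 with default deviances, 40 in cortex, 68 in hippocampus, 123 in males and 7 with counts summed per strain, and 179 to 282 without 1 strain; 148 were higher and 70 lower, against 116 and 87 with column totals, 168 and 227 with DESeq2 and 1999 and 4713 with default deviances, so the larger side turned with both of the latter. For region (22) there were 61 with DESeq2, 8023 with default deviances, 44 with strain, sex and title word as covariates, 7 in females and 11 to 28 without 1 strain (11 without NOD/ShiLtJ); 6 were higher and 16 lower, against 4507 and 3516 with default deviances. Among strains (781) there were 1335 with DESeq2, 13525 with default deviances and 474 in males. For the title word (293) there were 635 with DESeq2, 8327 with default deviances, 550 with strain and region as covariates, 27 in cortex, 5 in hippocampus and 124 to 407 without 1 strain; 81 were higher and 212 lower, against 150 and 84 with column totals, 244 and 391 with DESeq2 and 4065 and 4262 with default deviances. The sex by origin term called 6 genes and 0 with RLE factors (1035 at an unadjusted p under 0.05).

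The rRNA-like share as a covariate gave log2 differences between the sexes of -0.63 for Malat1, -1.125 for Neat1 and -1.196 for Miat. For Neat1 the sex difference was 1.317 in cortex, 1.22 in hippocampus, 0.9347 among libraries titled high and 0.8699 to 1.394 without 1 strain. For Miat it was 0.5353 with strain and region as covariates, 2.133 in cortex, 0.4655 in hippocampus and 0.134 to 1.533 without 1 strain.

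For origin, Malat1 gave -0.6757 with default deviances (adjusted p = 0.02995) and -1.302 to -0.2493 without 1 strain, Neat1 -1.819 to 0.3202 without 1 strain, and Gas5 0.1278 with the rRNA-like share, 0.008219 with sex and region as covariates, 0.348 in hippocampus, 0.06883 without the library with the highest Lars2 and -1.112 to 0.5394 without 1 strain. For region, Malat1 gave 0.02588 and Miat 0.2948 with the rRNA-like share, Miat 0.3836 with strain, sex and title word as covariates, 0.6096 in males and -0.6037 to 0.9623 without 1 strain, and Gas5 -0.02771 with those covariates, -0.1541 in males and -0.1129 to 0.2646 without 1 strain. Among strains, adjusted p with the rRNA-like share was 0.07375 for Malat1, 0.06336 for Neat1, 0.974 for Miat and 0.02023 for Gas5. For Miat it was 0.2835 with sex and region as covariates and 0.9083 in males, and for Gas5 0.0125 with DESeq2, 0.02084 with default deviances and 0.04419 with sex and region as covariates.

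For the title word, Malat1 gave 0.6159 with DESeq2, 0.5883 with filterByExpr, 0.5461 with the rRNA-like share, 0.41 with strain and region as covariates, 0.5922 without the library with the highest Lars2, 0.9036 in cortex, 0.2855 in hippocampus and 0.3513 to 0.8251 without 1 strain, none past the threshold except without CAST/EiJ or NOD/ShiLtJ. With default deviances Neat1 (0.8554) and Miat (-1.043) passed. The interaction of Neat1 for sex by region was 0.05356 with column totals, that of Malat1 for sex by origin -0.1113 with column totals and -0.1132 with RLE factors, and the sex difference of the Neat1 to Malat1 ratio 0.06281 in cortex.

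Of the 18 relations between members and technical measures, 0 passed in males. Values of r that changed sign were, in males, -0.2839 for Malat1 and Miat, -0.0903 for Neat1 and Miat, -0.1509 and -0.1331 for log10 total count with Malat1 and Neat1, 0.1015 for rRNA-like share and Miat and 0.04698 for neuronal markers and Gas5. In females they were -0.08954 for Malat1 and Gas5, -0.04793, -0.2189 and -0.2696 for log10 total count with Malat1, Neat1 and Gas5, 0.1982 and 0.1444 for neuronal markers with Malat1 and Neat1 and 0.2436 for rRNA-like share and Gas5. Without the 2 farthest libraries Malat1 and Gas5 gave -0.04947.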
